A study of Homo sapiens with 4 samples.

Results

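TFRC and STEAP3 encode consecutive steps of cellular iron uptake, and these 2 genes were followed through every table of a METTL3 silencing experiment in HepG2 cells, an established human hepatoma line. They were chosen by their listing in the authors' tables, the 12 listed TFRC introns included, which rests on the fold change and adjusted p between the groups. Their features were found by gene symbol in the isoform table and by Ensembl identifier (ENSG00000072274 for TFRC, ENSG00000115107 for STEAP3) in the gene, exon and intron tables, with merged loci searched as well. They account for 2 of 1977 listed genes, 2 of 7251 listed isoforms and 12 of 2672 listed introns. No exon of either gene is among the 474 listed exons, and no merged locus holds either gene. METTL3 is the enzyme that writes N6-methyladenosine (m6A) into messenger RNA.

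The control group held 2 libraries from cells given a scrambled siRNA, which the series design calls mock-transfected, and the knockdown group held 2 libraries from cells given an siRNA against METTL3. Both groups were transfected with Oligofectamine, transfected again at 48 and 96 hours and collected on day 7. Poly(A) RNA was sequenced. The labels do not say whether the 2 libraries of a group came from separate cultures, how many siRNA sequences were used or how many HepG2 clones were grown, so the authors' p-values reflect only how these libraries scatter, which may be technical.

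Transferrin in the medium carries ferric iron, binds the transferrin receptor at the cell surface and enters by clathrin-coated vesicles. In the acidified endosome the iron is released, reduced by the ferrireductase STEAP3 and moved to the cytosol, mainly by the transporter SLC11A2, while the receptor recycles to the surface. When iron is scarce, the iron regulatory proteins bind hairpins, called iron-responsive elements, after the coding region of the TFRC message and slow its decay, and hepatocytes in turn set body iron through the hormone hepcidin.

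The TFRC hairpins and the promoters of both genes are printed because they are the control elements that textbook knowledge ties to the message and the gene whose levels are described here. The search read the sense strand of the transcript for a C, then 5 bases, the loop CAGTG with 1 further base, and 5 bases able to pair with the first 5 by Watson-Crick or G-U pairing. The GENCODE 29 transcript ENST00000360110 of TFRC held 4 matches, all in exon 19, its last exon, after the coding end, on the minus strand of chromosome 3 in GRCh38. They lie at chr3:196050979-196051007, chr3:196050575-196050603, chr3:196050510-196050538 and chr3:196050463-196050491, in that order, each shown over 29 bases with the CAGTG loop in capitals.
TFRC hairpin 1: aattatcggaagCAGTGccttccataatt
TFRC hairpin 2: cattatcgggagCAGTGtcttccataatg
TFRC hairpin 3: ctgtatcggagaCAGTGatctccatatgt
TFRC hairpin 4: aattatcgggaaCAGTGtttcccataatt

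Of 19702 protein-coding genes, each represented by its longest GENCODE 29 transcript, 260 (1.32%) held at least 1 such match, 5 held at least 2, and 1 transcript held 4, the highest number found. The STEAP3 transcripts ENST00000393106 and ENST00000393107 held 0 matches. A match is a description of letters and pairing. Hairpins with a broken stem or another loop sequence are not matched, so the 4 in TFRC need not be all of its iron-responsive elements. GGACT, the commonest core of the m6A consensus, occurred 6 times in the 5111 bases of the TFRC transcript (1.17 per kb), 4 times in the 3915 bases of ENST00000393106 (1.02 per kb) and 2 times in the 1871 bases of ENST00000393107 (1.07 per kb), on the sense strand, against a median of 0.927 per kb over the same coding transcripts. Of the coding genes 35.5% were at or above the density of TFRC, 44.0% at or above ENST00000393106 and 41.2% at or above ENST00000393107. Methylation was not measured in these files.

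The promoters, each 250 bases before to 50 bases after the gene's start, come from RefSeq on GRCh38.p14, where both genes were found. TFRC is at chr3:196082041-196082340 on the minus strand and STEAP3 at chr2:119223584-119223883 on the plus strand. Capitals mark ACGTG, the core bound by hypoxia-inducible factors, and TATAAA, the TATA box, searched on both strands with no overlap between them.
TFRC promoter: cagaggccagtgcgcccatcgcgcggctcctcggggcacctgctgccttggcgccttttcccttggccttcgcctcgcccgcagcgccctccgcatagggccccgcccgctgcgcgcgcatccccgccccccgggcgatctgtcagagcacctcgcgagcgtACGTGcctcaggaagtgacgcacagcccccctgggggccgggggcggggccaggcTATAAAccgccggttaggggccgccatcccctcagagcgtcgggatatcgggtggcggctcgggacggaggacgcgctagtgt
STEAP3 promoter: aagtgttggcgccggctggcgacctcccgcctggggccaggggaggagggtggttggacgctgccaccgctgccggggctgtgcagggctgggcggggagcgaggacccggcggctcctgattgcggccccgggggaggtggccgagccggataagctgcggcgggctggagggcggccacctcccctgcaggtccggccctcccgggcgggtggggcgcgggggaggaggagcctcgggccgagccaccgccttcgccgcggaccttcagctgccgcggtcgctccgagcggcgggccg

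The TFRC promoter held 1 ACGTG, which 21.4% of 35116 promoters of the same length hold on either strand, and 1 TATAAA, which 11.5% hold. In the STEAP3 promoter neither was matched in this window. GGGCGG, the core of the GC box bound by SP1, was matched 3 times in each of the promoters on either strand, and 45.0% of all promoters hold it.

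TFRC and STEAP3 moved in opposite directions. TFRC, the receptor, fell 2.51-fold, from a group mean of 66660 to one of 26518 normalized counts, per the authors' deposited table (log2 fold change -1.33, authors' adjusted p = 5.44e-163). STEAP3, the reductase, rose from 191 to 732 normalized counts, a 3.83-fold rise, per the authors' deposited table (log2 fold change 1.94, authors' adjusted p = 3.51e-22). These are the values that chose the genes, so they are a description. The gene, isoform and intron tables give 1 value per group, so it cannot be said which libraries were high or low or whether the groups overlapped, and no SD can be given. In bulk RNA, fewer cells carrying a message and less of it per cell cannot be told apart.

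Among all listed genes 58.7% were lower and 41.3% higher, so both directions are common in the table. The median log2 fold change of the listed genes was -1.10, and relative to it TFRC stood at -0.23 and STEAP3 at 3.04. Of the 1161 lower genes, 653 fell more than TFRC, while of the 816 higher genes 239 rose more than STEAP3. By the authors' adjusted p the order differs: 17 listed genes had a smaller value than TFRC, against 630 for STEAP3. TFRC thus had an intermediate fold among the falls and one of the smallest p-values, at a far higher read count.

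TFRC had the highest control read count of the 1977 listed genes and ranked 2 in the knockdown. Read counts grow with transcript length. Per kb of exon, with 7887 bases of TFRC exon in GENCODE 29, TFRC had 8452 normalized counts per kb in the control and 3362 in the knockdown, ranks 3 and 6 of the 1799 listed genes with a length. STEAP3, over 4562 exon bases, had 41.9 normalized counts per kb in the control (rank 948) and 161 in the knockdown (rank 376). The 2 genes of the pathway were thus far apart in level per length in both groups.

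**Figure D1:**
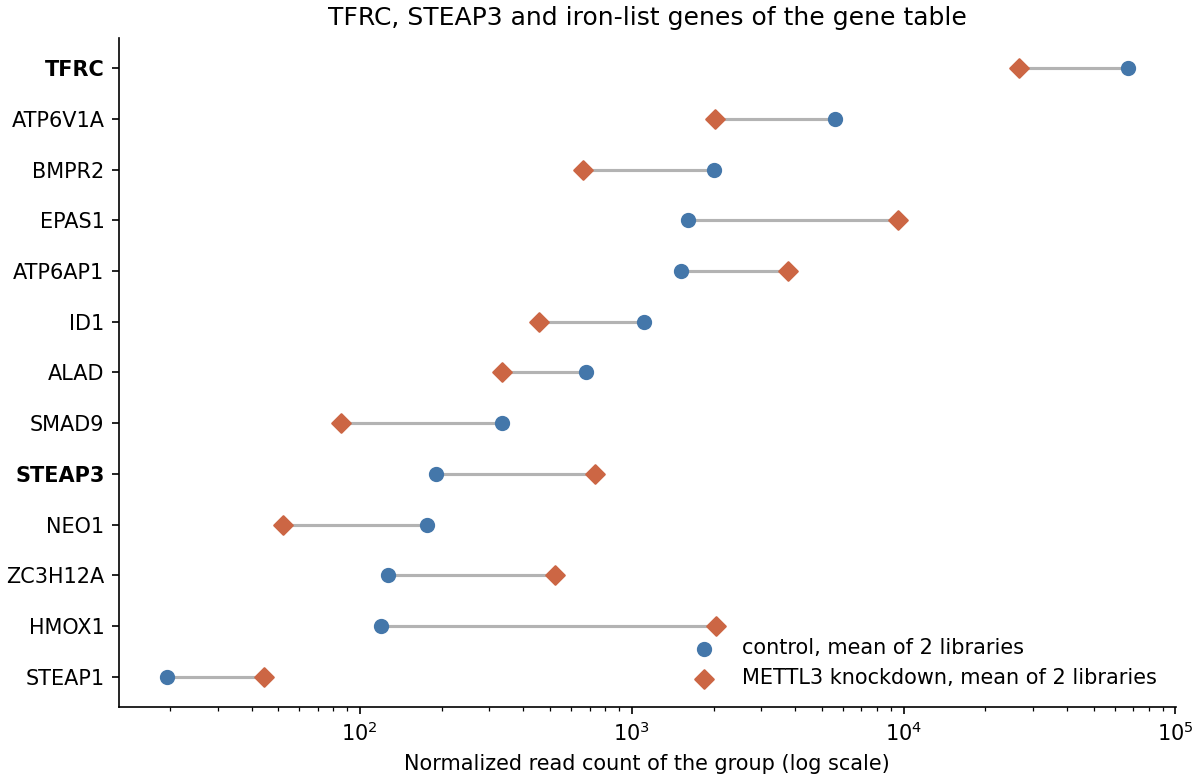
Normalized read count on a log axis (not per length) of TFRC, STEAP3 and the 11 other iron-list genes in the gene table, ordered by control level, each point the authors' group mean of 2 libraries, with no error available. TFRC moves left from 66660 to 26518 and STEAP3 right from 191 to 732, and HMOX1 has the longest line.

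Genes with the most similar pair of group means were found by the Euclidean distance over log2(mean + 1) of the 2 groups. Nearest to TFRC was the amino acid transporter SLC38A2, which went from 64215 to 22639 normalized counts per the authors' deposited table (distance 0.234). The next were the class I MHC light chain B2M, from 38969 to 15459 (distance 1.10), and the scaffold protein AHNAK, from 36045 to 15238 (distance 1.19), per the authors' deposited table. Nearest to STEAP3 were troponin C, TNNC1, from 200 to 748, the transporter SLC16A9, from 212 to 654, and the reductase CYB5R4, from 195 to 629 normalized counts per the authors' deposited table (distances 0.0757, 0.220 and 0.221). The likeness rests on 2 group means and covers listed genes alone.

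The METTL3 message was 3.96-fold lower in the knockdown, from 955 to 241 normalized counts per the authors' deposited table. Library totals are unknown because only listed features have values. Liver identity could not be checked by level: of 19 liver and HepG2 markers, ALB and AFP among them, 0 are in the gene table. Of 19 markers of blood, endothelial, neural or stromal cells 3 are listed (CD14, CDH5 and SYP), all higher per the authors' deposited table, with a summed level of 192 normalized counts in the control and 1237 in the knockdown. The isoform table lists 4 of the 19, CD68 as well, with 3 isoforms higher and 1 lower. Their summed level was 5.05 FPKM in the control and 18.0 FPKM in the knockdown. Over all listed features 41.3% of genes and 46.7% of isoforms were higher, and these marker counts are too small to read against that. None of the 3 genes was at 0 in either group, and their part in the results was not tested.

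The fall of TFRC extended to its introns. All 12 listed introns were lower in the knockdown, where 71.7% of all listed introns were lower. They carry the numbers 2, 3, 5 to 10 and 12 to 15 there. The main GENCODE 29 transcript of TFRC has 18 introns, and the authors' numbers could not be tied to these because no source used here names the annotation behind them. Introns of 1 gene are not independent, and all 12 were part of the choice of TFRC.

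In the control the 12 introns ranged from 107 to 625 normalized counts, with a median of 237, and in the knockdown from 34.1 to 160, with a median of 88.5, per the authors' deposited table. In 4 of them the knockdown value was above the lowest control value, so the ranges overlap although each intron fell. Intron 6 had the strongest fall, from 625 to 124 normalized counts, 5.05-fold, per the authors' deposited table (log2 fold change -2.34, authors' adjusted p = 2.86e-31). Intron 13 fell from 380 to 92.5 and intron 8 from 567 to 154 normalized counts per the authors' deposited table, log2 fold changes of -2.04 and -1.88. The mildest fall was in intron 3, from 340 to 160 normalized counts, 2.12-fold, per the authors' deposited table. The lowest control value was in intron 9, which fell from 107 to 34.1 normalized counts, 3.13-fold, per the authors' deposited table. The fall thus varied from 2.12-fold to 5.05-fold along 1 gene.

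Of the 12 introns, 11 fell more than the gene as a whole, and their median log2 fold change was -1.50, lower than the gene's by 0.17 (the difference is -0.17). An intron that fell less than 2-fold is not listed, which pulls this median down. On the scale of the listed introns, whose median was -1.36, introns 3 and 5 change sign, to 0.27 and 0.018, and the other 10 stay lower.

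**Figure D2:**
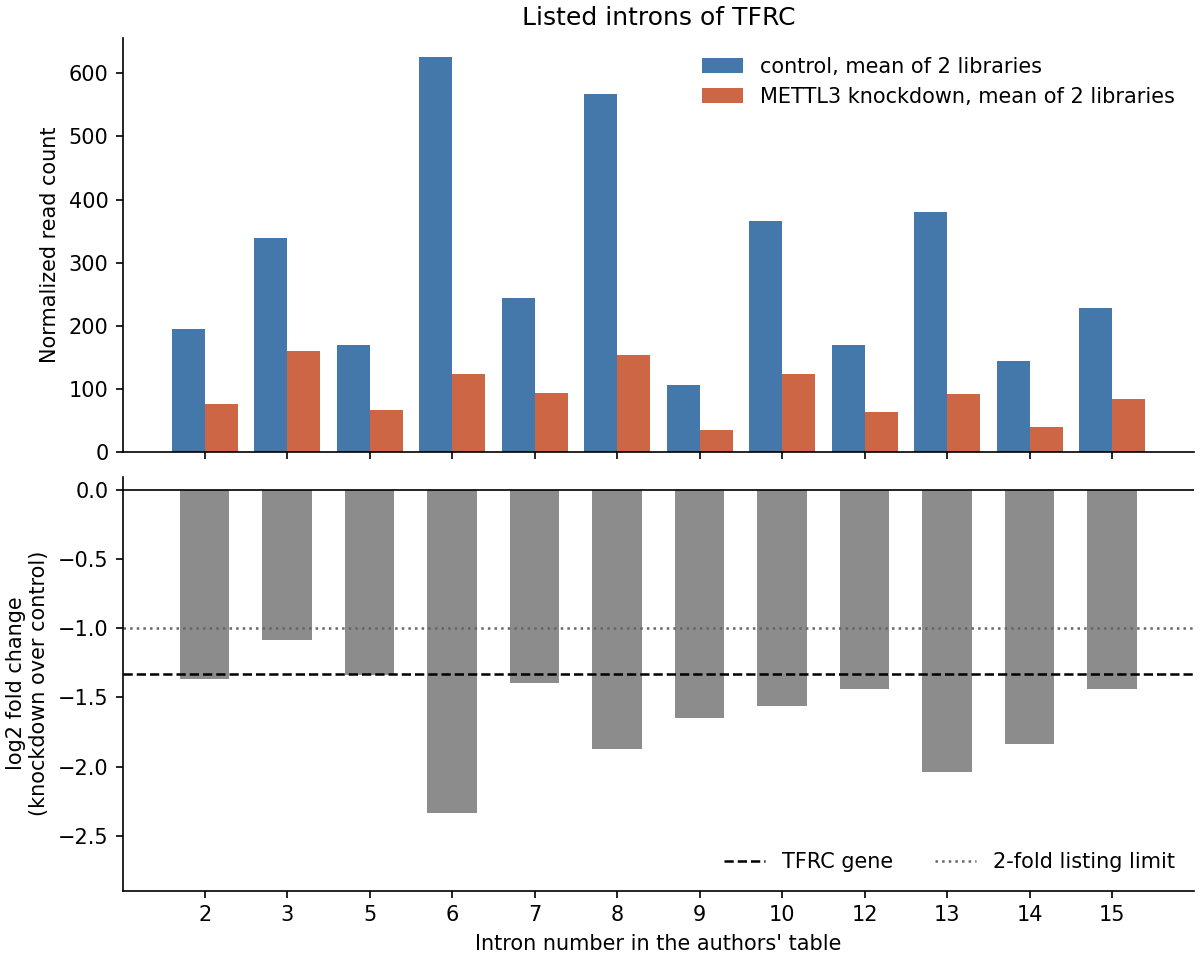
Upper panel: normalized read count of the 12 listed TFRC introns in each group (authors' group means of 2 libraries, no error available); lower panel: their log2 fold change, with the fold change of the gene dashed and the 2-fold listing limit dotted. Every knockdown bar is lower than its control bar, and 11 of 12 introns lie beyond the gene's -1.33, intron 6 the farthest at -2.34.

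TFRC was among the loci with the most listed introns. Of 1898 genes or loci with a listed intron, 1 had more, the pregnancy zone protein gene PZP with 26, and SLC38A2 also had 12. SLC38A2, the nearest gene to TFRC by its group means, thus had the same number, with a median intron log2 fold change of -1.32 beside -1.50 for the gene. There were 74 genes with a gene value and at least 3 listed introns, 60 of them lower. The difference between the median intron and the gene ranged from -2.52 to 0.77 over these 60 genes, with a median of -0.26, and 37 of them had a lower value than TFRC. The relation of TFRC introns to its gene was thus near the middle of such genes.

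No TFRC isoform is in the isoform table, so FPKM values of TFRC transcripts are not analysed here, and no STEAP3 intron is in the intron table. 

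STEAP3 rose in 2 isoforms, both higher, where 46.7% of all listed isoforms were higher. ENST00000393107 went from 1.36 to 6.67 FPKM, a 4.91-fold rise, per the authors' deposited table. ENST00000393106 went from 0.427 to 1.03 FPKM, a 2.41-fold rise, per the authors' deposited table (authors' adjusted p = 0.00268). With a pseudocount of 1 FPKM the second falls under the 2-fold minimum, at a log2 fold change of 0.51. FPKM is per length, so the levels can be compared: the first isoform was the more abundant in both groups. Their sum went from 1.79 to 7.70 FPKM, 4.31-fold, beside 3.83-fold for the gene in read counts. Of that sum ENST00000393107 made up 76.1% in the control and 86.6% in the knockdown.

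**Figure D3:**
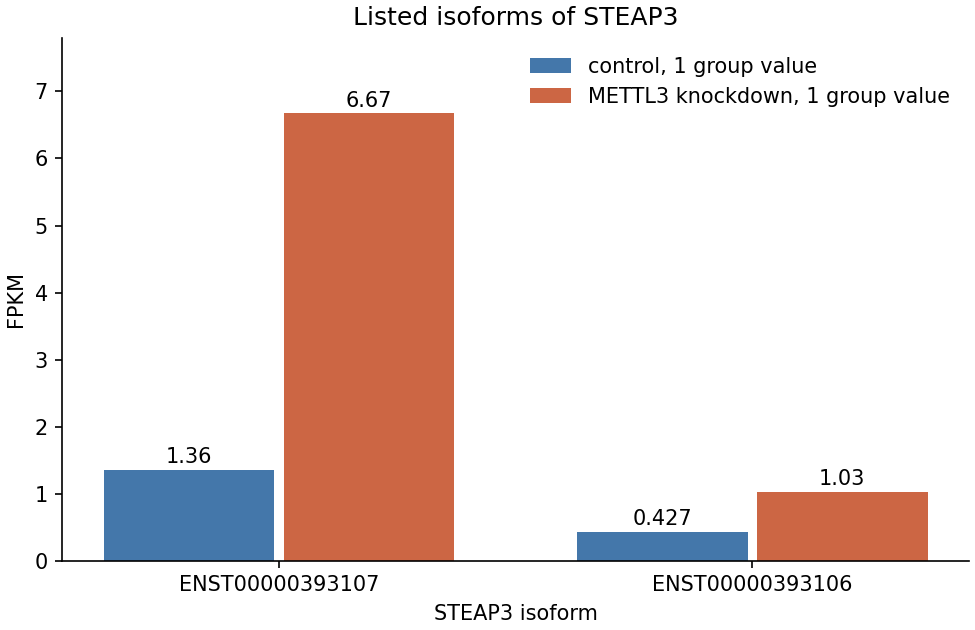
FPKM of the 2 listed STEAP3 isoforms in each group (1 deposited value per group, no error available, axis from 0). Both knockdown bars are higher, at 6.67 and 1.03 against 1.36 and 0.427 in the control.

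In GENCODE 29 both isoforms share 1 coding region of 1464 bases, between positions 119245497 and 119263335 of chromosome 2 in GRCh38, on the plus strand, so they differ in noncoding parts only. ENST00000393107 has 5 exons and 1871 bases, with a last exon of 642 bases. ENST00000393106 has 6 exons and 3915 bases, with an added second exon of 68 bases before the coding start (119239363 to 119239430) and a last exon of 2596 bases. The coding transcripts ENST00000393110 and ENST00000409811, with 1494 and 1371 coding bases, are not in the isoform table. STEAP3-AS1, an antisense gene, overlaps STEAP3, and RNU7-18P and the pseudogene AC024937.1 lie on the opposite strand within TFRC. The counting is not stated to use strand, so reads of such partners cannot be told apart from those of the 2 genes. The gene table lists 0 of these 3.

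Beside TFRC and STEAP3, 136 genes of iron handling in 7 lists were looked up, and 46 of them had a listed gene, isoform or intron. The gene table listed 11 of them, 5 higher and 6 lower, close to the split of the whole table (41.3% higher). The median log2 fold change of the 11 was -1.03, against -1.10 for all listed genes. No listed gene changed less than 2-fold, so any set with more falls than rises has a median of -1 or lower by construction. The closeness of the 2 medians therefore says nothing about the iron genes. The isoform table listed 36 of the 136 with 50 isoforms, 27 higher and 23 lower (46.7% of all isoforms were higher), and the intron table listed 16 with 23 introns, 13 higher and 10 lower (28.3% of all introns were higher). The lists were not tested, and 1 gene, 2 isoforms and 5 introns among these change sign relative to their table's median.

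The other genes of iron uptake moved both ways. STEAP1, a relative of STEAP3, rose from 19.6 to 44.3 normalized counts per the authors' deposited table, and its isoform from 1.08 to 2.36 FPKM. Intron 9 of SLC11A2, the transporter that moves endosomal iron to the cytosol, fell from 55.3 to 12.2 normalized counts per the authors' deposited table. Intron 7 of SCARA5, a ferritin receptor, fell from 161 to 56.9 normalized counts per the authors' deposited table. Introns 1 and 2 of the metalloreductase STEAP4 fell from 163 to 63.9 and from 151 to 65.9 normalized counts per the authors' deposited table, both falls smaller than the median intron change. An isoform of SLC39A14, which imports iron not bound to transferrin, fell from 2.74 to 1.13 FPKM, and an isoform of the endolysosomal channel MCOLN1 rose from 0.571 to 1.47 FPKM, per the authors' deposited table. Members of the STEAP family were thus higher as genes where listed, STEAP1 (authors' adjusted p = 0.0428) and STEAP3, and lower in the introns of STEAP4. Over all listed features 41.3% of genes were higher and 71.7% of introns were lower. STEAP3 was chosen by its values, so its rise adds no support to a family pattern.

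Genes of receptor traffic were mixed as well. Of 28 such genes 2 were in the gene table: ATP6V1A, a catalytic subunit of the proton pump that acidifies endosomes, fell from 5588 to 2022 normalized counts, and ATP6AP1, an accessory subunit, rose from 1518 to 3745, per the authors' deposited table. Isoforms of the pump subunits ATP6V0A1 and ATP6V1H rose from 6.30 to 15.8 and from 3.01 to 11.3 FPKM per the authors' deposited table. Subunits of 1 pump were thus listed in both directions. Isoforms of CLTA, a clathrin light chain, rose from 0.289 to 6.59 and from 1.52 to 6.29 FPKM per the authors' deposited table. The authors' adjusted p was 0.0224 and 3.37e-07. An isoform of MYO5B fell from 0.875 to 0.228 FPKM per the authors' deposited table. Of 11 listed isoforms of the 28 genes 7 were higher and 4 lower, where 46.7% of all listed isoforms were higher. Their 6 listed introns were 4 higher and 2 lower, where 28.3% of all listed introns were higher. The clathrin assembly protein PICALM had 1 isoform higher (3.14 to 6.84 FPKM) and 1 lower (2.08 to 0.587 FPKM) per the authors' deposited table, and its intron 22 rose from 65.3 to 218. EXOC6, of the exocyst, also had 1 isoform in each direction. An intron of RAB12, a GTPase that sends the receptor to lysosomes, rose from 193 to 499 normalized counts per the authors' deposited table.

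Among 14 genes that sense iron or oxygen or act on the decay or transcription of the TFRC message, the 2 in the gene table were higher. Over all listed genes 41.3% were higher, and 2 genes are too few to read against that share. EPAS1, the oxygen-regulated transcription factor HIF-2 alpha, rose from 1615 to 9506 normalized counts, 5.89-fold, per the authors' deposited table, and its 4 listed introns were all higher. ZC3H12A, or Regnase-1, an endonuclease known to cleave the TFRC message, rose from 127 to 520 normalized counts, 4.11-fold, per the authors' deposited table, with 2 isoforms higher. An isoform of RC3H2, an RNA-binding protein of stem-loop mediated decay, rose from 0.241 to 1.11 FPKM per the authors' deposited table. The isoform ENST00000309951 of ACO1, iron regulatory protein 1, rose from 17.2 to 34.7 FPKM, at the edge of the 2-fold limit, and an isoform of HIF1A from 0.869 to 6.20 FPKM, per the authors' deposited table. An isoform of FBXL5, the iron-sensing subunit of the ligase that removes iron regulatory protein 2, fell from 1.72 to 0.424 FPKM per the authors' deposited table. Of the 7 listed isoforms of these genes 6 were higher, where 46.7% of all listed isoforms were higher. Their 5 listed introns, 4 of EPAS1 and 1 of HIF1A, were higher, where 28.3% of all listed introns were higher. Whether any of these changes bears on TFRC was not tested.

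For storage, intron 3 of the ferritin heavy chain FTH1 rose from 575 to 1406 normalized counts per the authors' deposited table, and an isoform of NCOA4, the receptor that delivers ferritin to lysosomes, fell from 24.6 to 11.7 FPKM. Neither ferritin gene is in the gene table. FTH1 has many processed pseudogene copies, so its reads may be shared with them.

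Of 23 genes of iron export and hepcidin control 4 were in the gene table. All 4 were lower, where 58.7% of all listed genes were lower, and they stay lower relative to the table's median. The BMP receptor BMPR2 fell from 2011 to 663 normalized counts, and SMAD9, a BMP-regulated transcription factor, from 333 to 85.1, per the authors' deposited table. ID1, a BMP target, fell from 1114 to 458 normalized counts, and NEO1, the receptor of hemojuvelin, from 176 to 52.1, per the authors' deposited table. Of 14 listed isoforms of the 23 genes 10 were lower and 4 higher, where 53.3% of all listed isoforms were lower. HFE, which binds the transferrin receptor and takes part in hepcidin control, had 5 listed isoforms: ENST00000349999 fell from 6.49 to 2.35 FPKM and ENST00000397022 from 4.76 to 1.93 FPKM, and ENST00000357618 rose from 0.704 to 2.45 FPKM, per the authors' deposited table. The other 2 HFE isoforms, listed at 0 in the control, reached 0.229 and 0.351 FPKM in the knockdown. SMAD6, an inhibitor of BMP signalling, had introns 1, 2 and 4 lower, intron 2 falling from 462 to 108 normalized counts per the authors' deposited table, while its falls in introns 1 and 4 were smaller than the median intron change. Intron 2 of the ligand gene BMP2 fell from 1694 to 623 normalized counts per the authors' deposited table. Over all listed introns 71.7% were lower. The 1 exon of the iron lists with a value per library was exon 20 of the merged BMP6+BLOC1S5 locus. It stood at 57.8 and 68.0 normalized counts in the first and second control library and at 33.0 and 33.4 in those of the knockdown. The means were 62.9 ± 7.21 and 33.2 ± 0.296 (SD, n = 2 per group). The authors listed this exon from these same libraries, so the gap between the groups is a description. Their log2 fold change for it was -1.39, a larger fall than these means give. The exon cannot be assigned to BMP6 or to its neighbour.

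In haem metabolism, HMOX1, the inducible haem oxygenase that frees iron from haem, rose from 119 to 2035 normalized counts, 17.1-fold, per the authors' deposited table, and its isoform from 4.53 to 78.2 FPKM. ALAD, the second enzyme of haem synthesis, fell from 679 to 333 normalized counts per the authors' deposited table, a fall smaller than the table's median. An isoform of ALAS1, the first and rate-limiting enzyme, rose from 2.94 to 11.5 FPKM per the authors' deposited table. UROS, a later enzyme, had 2 isoforms that fell, from 7.79 to 0.399 and from 8.10 to 0.305 FPKM, and 1 that rose from 0.149 to 1.60 FPKM, per the authors' deposited table. Of 28 genes of mitochondrial iron and iron-sulfur clusters 0 were in the gene table. Introns 2 and 10 of FDXR, ferredoxin reductase, rose to 56.7 from 8.72 and to 112 from 18.9 normalized counts per the authors' deposited table. All 3 listed introns of these 28 genes were higher, where 28.3% of all listed introns were higher. Of their 4 listed isoforms 3 were higher and 1 lower, where 46.7% of all listed isoforms were higher. MMS19 had 1 isoform higher (1.65 to 3.48 FPKM) and 1 lower (2.16 to 0.407 FPKM) per the authors' deposited table.

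**Figure D4:**
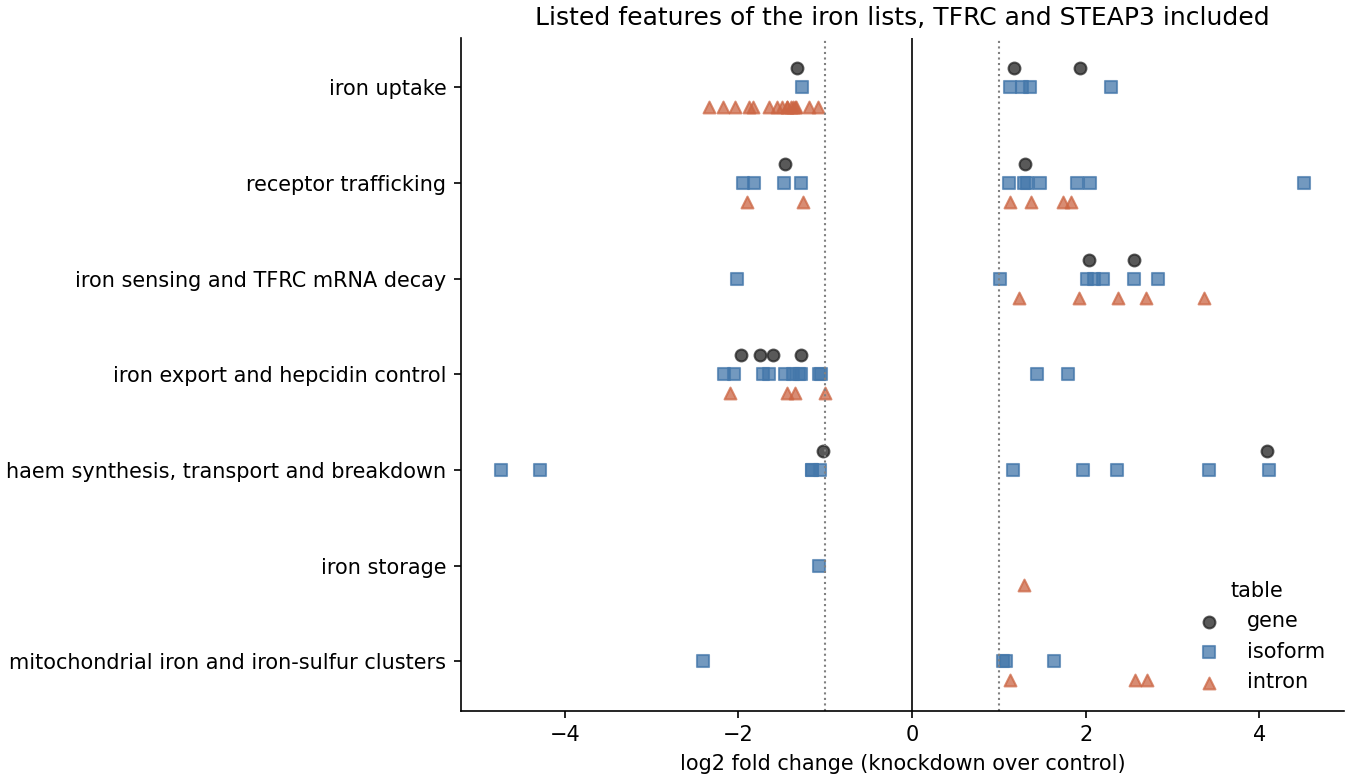
The log2 fold change of every listed gene, isoform and intron of the 7 iron lists, TFRC and STEAP3 included, by role, with the 2-fold listing limits dotted. The 2 HFE isoforms at 0 in the control have no finite value and are left out. The 12 TFRC introns form most of the lower iron uptake features. The 4 listed genes of iron export and hepcidin control all lie left of -1.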

How the data were processed

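Poly(A) RNA of 4 HepG2 libraries was sequenced. Build hg18 and the programs TopHat 1.2.0, CASAVA 1.8, Cufflinks, Cuffdiff 1.0.3, DESeq 1.5.24 and HTSeq are named in the submitters' processing notes, with no role for each. Per the file headers, the authors deposited a normalized signal (mean read count after division by a size factor), a fold ratio, a log2 fold change and raw and adjusted p-values for genes and introns, and 1 FPKM value per group with p-values for isoforms. The exon table gives a normalized signal per library, per the file headers. As found from the values, the gene, isoform and intron tables hold nothing with an adjusted p of 0.05 or more or under a 2-fold change. Other features were not analysed here, and the depth of the libraries is unknown.

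The authors' values were used as deposited, with isoform folds computed from FPKM, in Python 3.11.15 with pandas 2.3.3. Symbols were found for 1795 of 1977 gene identifiers. Positions and transcripts are those of GENCODE 29 (GRCh38), used for structure and sequence and never joined to hg18 positions. No new test was made: a limma test was planned for exons of TFRC and STEAP3, and none is listed. The search for hairpins and for similar genes was checked on simulated data. Every listed feature of TFRC, STEAP3 and METTL3 could be named, and so could listed genes of the 7 iron lists, for isoforms and introns up to 5 per list by the authors' adjusted p, while isoforms of CLTA, PICALM, EXOC6, RC3H2 and FBXL5 and some of HFE and UROS were named after their values were seen. The genes and lists were chosen with earlier results of these data known.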

Additional observations from a re-analysis of the deposited data

How the results depend on the processing

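Alternatives were the authors' adjusted p at 0.01, recentring on each table's median, a minimum mean of 50 normalized counts or 5 FPKM, a pseudocount of 1 FPKM and leaving out merged loci. Recentring moved most: TFRC went from -1.33 to -0.23 on the log2 scale and TFRC introns 3 and 5 turned to 0.27 and 0.018. With the 2-fold minimum kept after recentring, 0 of the 12 TFRC introns remained listed, and of the other iron-list features that were lower, 0 of 6 genes, 4 of 23 isoforms and 0 of 10 introns. This shift sets a zero at a fall that is itself about 2-fold, by construction, so falls shrink and rises grow. At an adjusted p of 0.01 the higher iron-list introns went from 13 to 8, and TFRC intron 7 was lost, while the TFRC and STEAP3 genes kept their direction and call. STEAP3 isoforms have means under 5 FPKM and gave no value there. No paired analysis was possible because the exon table alone holds values per library, and it lists no exon of TFRC or STEAP3. For the same reason no library could be left out, and the other settings chosen for exons (pseudocount, minimum, centring) were not run.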
